A study of Mus musculus with 29 samples.

Results

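Acetylation of lysine 9 on histone H3 (H3K9ac) was mapped by ChIP-seq in nuclei of the embryonic mouse cortex that carry the transcription factor Tbr2, and the peak lists of 4 libraries treated with the deacetylase inhibitor TSA were set against those of 3 vehicle libraries. The members were chosen by the library titles alone: the 7 lists held 346427 peaks, of 866003 peaks in the 15 H3K9ac lists of the series, and the other 519576 belonged to Tbr2-negative nuclei. The compared groups were Tbr2-positive nuclei sorted by flow cytometry from fixed E16.5 cortex treated with vehicle (3 libraries) or TSA (4 libraries), precipitated with a Millipore antibody to H3K9ac. Tbr2-negative nuclei of the same tissue (4 vehicle and 4 TSA libraries) served as the contrast, and 10 RNA-seq libraries of the same populations, among them 3 vehicle and 2 TSA libraries of positive nuclei, as a second readout. The labels give no strain, dose or duration of the TSA treatment, and their protocol text names both sorted fixed nuclei and whole tissue as ChIP material. Nothing in them ties libraries to separate animals, and p-values here therefore speak for the spread among libraries, which may be technical.

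H3K9ac is placed by histone acetyltransferases and removed by histone deacetylases, and it lies on the nucleosomes that flank active promoters and enhancers. TSA blocks the zinc-dependent deacetylases and raises bulk histone acetylation in many cell types. Tbr2, the product of Eomes, marks the basal progenitors of the cortex, which arise from radial glia in the ventricular zone and divide to give neurons. A peak list shows where the signal of one library passed the threshold of a peak caller against an input library, so a change in total acetylation that touches all sites alike need not appear in it.

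Regions of 7 genes carry the comparisons below, and the promoter of each is shown from 250 bases before to 50 bases after its start, 5′ to 3′ on the gene's strand, as given by RefSeq for GRCm38.p6, with every CG pair in capitals. Eomes (chr9:118477939-118478238, plus strand) is shown because it marks the sorted nuclei, Vim (chr2:13574061-13574360, plus strand) and Slc7a11 (chr3:50443564-50443863, minus strand) because their acetylated regions were called narrower after TSA. Amigo1 (chr3:108186039-108186338, plus strand) carried a peak only in the vehicle lists cut to equal length and Iqsec3 (chr6:121473629-121473928, minus strand) only in the TSA ones. Yif1b (chr7:29238073-29238372, plus strand) and Rph3a (chr5:121009489-121009788, minus strand) had the largest higher and the largest lower pileup percentile among gene starts whose group ranges did not overlap, and each window is that of 1 of 3 listed starts.
Eomes: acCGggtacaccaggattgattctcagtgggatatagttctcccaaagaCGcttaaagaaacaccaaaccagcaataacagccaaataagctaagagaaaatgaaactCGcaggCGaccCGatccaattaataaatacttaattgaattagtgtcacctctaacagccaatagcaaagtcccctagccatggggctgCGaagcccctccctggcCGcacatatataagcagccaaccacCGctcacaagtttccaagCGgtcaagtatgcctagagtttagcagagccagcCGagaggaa
Vim: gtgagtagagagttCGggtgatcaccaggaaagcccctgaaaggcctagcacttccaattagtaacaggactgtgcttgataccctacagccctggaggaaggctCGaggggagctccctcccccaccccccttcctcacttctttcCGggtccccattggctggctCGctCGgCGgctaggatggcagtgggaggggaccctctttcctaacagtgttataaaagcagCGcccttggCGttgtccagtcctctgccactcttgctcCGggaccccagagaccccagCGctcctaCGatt
Slc7a11: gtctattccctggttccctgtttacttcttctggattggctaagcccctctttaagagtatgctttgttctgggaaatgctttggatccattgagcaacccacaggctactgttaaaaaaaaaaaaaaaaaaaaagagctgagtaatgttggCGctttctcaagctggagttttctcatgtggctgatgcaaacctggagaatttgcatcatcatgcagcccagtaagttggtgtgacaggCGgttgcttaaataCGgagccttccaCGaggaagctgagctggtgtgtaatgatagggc
Amigo1: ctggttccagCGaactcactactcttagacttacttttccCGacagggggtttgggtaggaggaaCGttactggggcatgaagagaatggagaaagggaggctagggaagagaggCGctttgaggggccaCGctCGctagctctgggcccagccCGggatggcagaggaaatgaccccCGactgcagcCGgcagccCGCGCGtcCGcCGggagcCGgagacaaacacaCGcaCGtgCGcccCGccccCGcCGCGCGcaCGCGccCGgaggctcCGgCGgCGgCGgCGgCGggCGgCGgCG
Iqsec3: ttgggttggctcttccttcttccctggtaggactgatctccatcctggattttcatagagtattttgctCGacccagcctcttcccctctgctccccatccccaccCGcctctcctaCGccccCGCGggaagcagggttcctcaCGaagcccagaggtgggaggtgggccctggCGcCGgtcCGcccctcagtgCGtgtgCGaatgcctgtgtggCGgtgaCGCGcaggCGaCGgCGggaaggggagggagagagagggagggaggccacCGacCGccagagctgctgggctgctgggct
Yif1b: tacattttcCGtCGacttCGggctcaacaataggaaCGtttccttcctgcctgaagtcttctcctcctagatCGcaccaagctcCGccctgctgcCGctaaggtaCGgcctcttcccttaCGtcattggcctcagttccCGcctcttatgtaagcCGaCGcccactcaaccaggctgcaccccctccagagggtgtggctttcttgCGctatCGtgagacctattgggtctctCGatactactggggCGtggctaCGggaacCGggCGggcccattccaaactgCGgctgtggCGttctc
Rph3a: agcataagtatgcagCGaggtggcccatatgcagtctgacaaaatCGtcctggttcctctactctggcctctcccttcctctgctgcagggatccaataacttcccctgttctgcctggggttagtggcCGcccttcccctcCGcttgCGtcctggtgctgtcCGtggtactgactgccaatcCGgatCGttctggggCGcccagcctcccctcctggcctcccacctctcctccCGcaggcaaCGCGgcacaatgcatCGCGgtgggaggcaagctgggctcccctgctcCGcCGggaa

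The 7 windows differed widely in CG content: 4 CG pairs at Slc7a11, 10 at Eomes, 11 at Vim, 16 at Rph3a, 19 at Iqsec3, 21 at Yif1b and 35 at Amigo1. The acetylated region covered all 300 bases of the window at Eomes, Vim, Slc7a11 and Rph3a, 248 bases at Amigo1, 103 at Yif1b and 63 at Iqsec3. The region of the 3 Amigo1 vehicle peaks ended 3 bases before the gene start, and that of Yif1b ended 148 bases before it.

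Depth and calling differed between the treatments. The vehicle libraries held 27.6, 27.6 and 29.5 M ChIP tags against an input of 30.1 M, and the TSA libraries 27.7, 22.2, 30.3 and 26.0 M against an input of 20.1 M. Per the file headers the caller scaled whichever of ChIP and input was larger down to the other, so the 4 TSA libraries were called at 20.1 M tags and the vehicle libraries at 27.6 to 29.5 M. Summit pileups were whole numbers in 100% of the vehicle peaks and in 0% of the TSA peaks. The calling depth and the treatment cannot be told apart in these 7 libraries. The 8 Tbr2-negative libraries were all called at the depth of their ChIP tags, 25.8 to 28.5 M for vehicle and 15.2 to 23.1 M for TSA, and those negative TSA lists held 47835 to 78929 peaks.

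Fewer peaks were called after TSA, and a larger share of them lay at gene starts. The vehicle lists held 82164, 61487 and 63496 peaks and the TSA lists 34045, 40053, 33359 and 31823, so that every vehicle list was longer than every TSA list. The means were 69049 ± 11402 (SD, n = 3) and 34820 ± 3610 (SD, n = 4), a ratio of 0.504 (p = 0.0571, exact two-sided permutation test over 35 splits, the smallest value 3 against 4 libraries can give, and the same after adjustment over 6 quantities). Most of the difference lay away from gene starts. Peaks within 1 kb of a start averaged 19219 in vehicle and 17546 in TSA libraries, a ratio of 0.913, whereas peaks farther away averaged 47842 and 16194, a ratio of 0.338. The share of peaks at gene starts was thus 29.0% ± 3.40 (SD, n = 3) in vehicle and 52.3% ± 3.36 (SD, n = 4) in TSA lists, with no overlap between the groups (p = 0.0571, exact permutation test). Peaks covered 31.4 ± 1.88 Mb of the genome in vehicle and 19.9 ± 0.993 Mb in TSA libraries (SD, n = 3 and 4; p = 0.0571, exact permutation test).

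Since a longer list reaches further down into weak, narrow peaks, all 7 lists were also cut to the 31823 peaks of highest pileup, the length of the shortest list. On the full lists the median peak was narrower in vehicle, at 218, 270 and 254 bp, than in TSA libraries, at 417, 344, 416 and 419 bp. On the equal-length lists the order turned: the median was 572, 580 and 576 bp in vehicle and 455, 450, 441 and 419 bp in TSA libraries, a ratio of 0.766 (p = 0.0571, exact permutation test). At gene starts the mean of these medians was 810 bp in vehicle and 612 bp in TSA lists, and elsewhere 386 and 297 bp, so both kinds of peak were narrower in TSA lists. Peaks of 2 kb or wider made up 3.79% ± 0.396 of the vehicle and 1.87% ± 0.162 of the TSA equal-length lists (SD, n = 3 and 4). The share at gene starts differed by far less than on the full lists, 50.6% ± 0.865 against 55.1% ± 0.423 (SD; p = 0.0571, exact permutation test), with every TSA list above every vehicle list. Among the strongest 10000 peaks of each list that difference was 0.0907 percentage points (79.0% and 79.1%, p = 0.8, exact permutation test).

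The file names give the sequencing lane. Within lane 1 the vehicle list held 82164 peaks and the 2 TSA lists averaged 37049, and within lane 2 the 2 vehicle lists averaged 62492 and the TSA list held 33359. The equal-length median width was 572 against 452.5 bp in lane 1 and 578 against 441 bp in lane 2, and TSA 4 was the only library of lane 3.

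**Figure D1:**
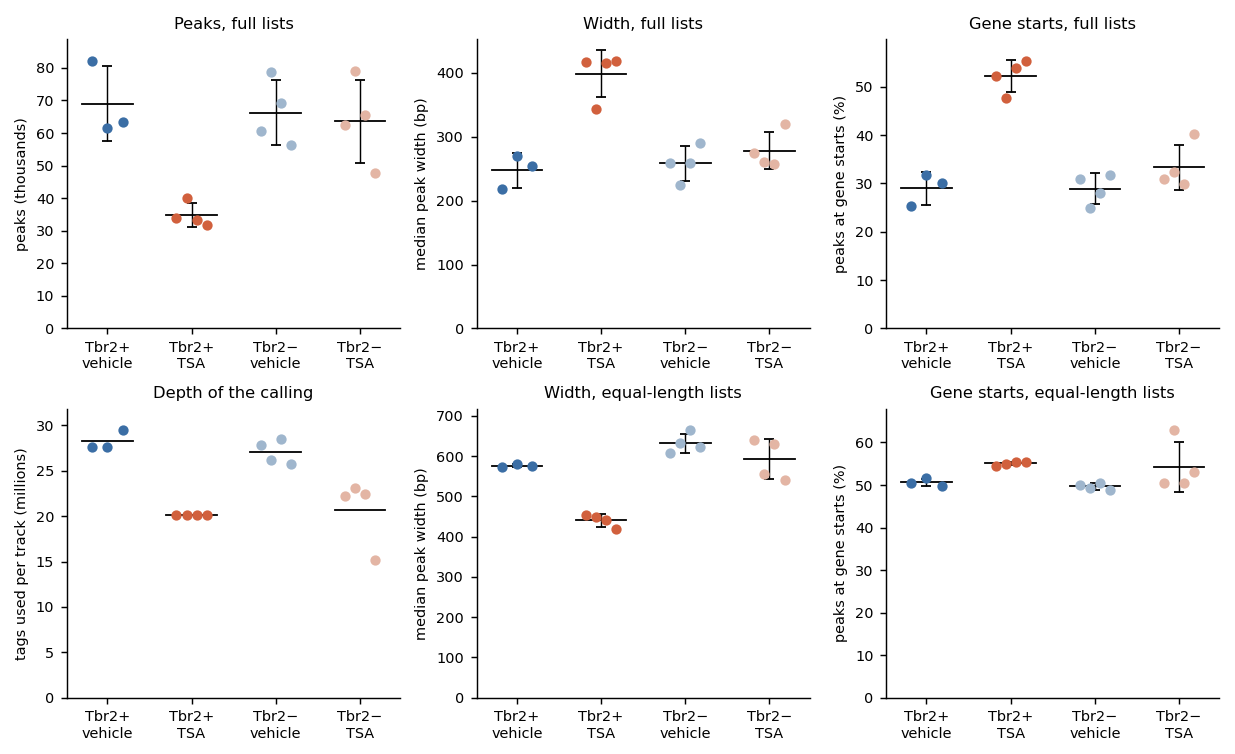
Peaks per library, median peak width (bp), share of peaks within 1 kb of a gene start (%) and tags used for calling (M) for the 15 H3K9ac libraries. Each point is a library, the horizontal line the group mean and the bars 1 SD. The 4 Tbr2-positive TSA libraries hold 31823 to 40053 peaks, below every other library, and their median width is the highest on full lists (344 to 419 bp) and lies between 419 and 455 bp on equal-length lists, below the 572 to 580 bp of vehicle.

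The peaks of the 7 libraries merged into 120661 regions. Of these, 19165 (15.9%) carried a peak in all 7 libraries, 2628 (2.18%) in all 3 vehicle and no TSA library, and 4 (0.00332%) in all 4 TSA and no vehicle library. Much of the rest belonged to single lists: 68070 regions (56.4%) were seen in 1 vehicle library only and 6451 in 1 TSA library only. The regions shared by all 7 libraries lay at gene starts in 67.2% of cases, whereas of 2560 vehicle-only regions that could be placed 281 (10.98%) did, 59.5% lay in gene bodies and 29.6% between genes, the last against 8.54% of the shared regions. Of the vehicle-only regions 902 (34.3%) lay within 10 kb of a shared region and 394 within 2 kb.

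With lists of equal length the vehicle-only count was lower and the TSA-only count higher than on full lists. A vehicle-only region needed a peak in every vehicle list and no TSA list, and a TSA-only region the reverse. There were more TSA than vehicle lists, so the conditions for these classes differed and their counts are not directly comparable. There were 47493 regions, of which 17930 (37.8%) were present in all 7 lists, 250 (0.526%) in vehicle lists only and 38 (0.08%) in TSA lists only. These group-specific regions were weak, with a median pileup percentile of 23.9 for the vehicle-only and 24.0 for the TSA-only regions, where 100 is the highest pileup of a list. Gene starts made up 17.8% of the vehicle-only and 31.4% (11 of 35 placed) of the TSA-only regions. The counts depend on each library: leaving out 1 of the 7 gave 354 to 694 vehicle-only and 76 to 97 TSA-only regions, and 3019 to 6500 and 10 to 20 on the full lists. A few vehicle-only regions had high pileups but were narrow. The highest, chr18:12949173-12949328, stood at percentiles 96.4, 94.1 and 96.4 and measured 145, 150 and 155 bp. The one at chr4:118548258-118548776 stood at percentiles 89.2, 93.5 and 96.0 and measured 339, 445 and 408 bp. Of the 7 strongest 4 lay between chr4:42025678 and chr4:42792786, with widths of 136 to 455 bp. The median width of the regions in all 7 lists was 965 bp in vehicle lists.

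The 8 named gene starts with the strongest vehicle-only regions on equal-length lists were those of Amigo1, a neuronal adhesion protein, Ankrd6, a Wnt pathway scaffold, Stat6 and Foxp1, transcription factors, Get1, which inserts tail-anchored proteins, Cdr1os, Tacr3, the neurokinin B receptor, and Clec2l. The Amigo1 region lay at percentiles 43.1, 34.3 and 39.6 in the vehicle lists. Of the 8 strongest TSA-only regions at named starts 7 were those of Cdt1, which licenses replication origins, Slc35c2, Iqsec3, an exchange factor of inhibitory synapses, Tesc, Pgbd5, Scnn1g, a sodium channel subunit, and Rbpms2, an RNA-binding protein. The Iqsec3 region lay at percentiles 33.4, 19.03, 30.8 and 17.5 in the TSA lists and the Cdt1 region at 8.95, 31.9, 40.9 and 23.3. All of these stood in the lower part of their lists. The named TSA-only regions were so on the equal-length lists alone. None of them was among the 4 TSA-only regions of the full lists, where at least 1 vehicle library carried a peak in the merged region.

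How far peaks recurred depended on their rank. On equal-length lists a mean of 74.1% of the peaks of a vehicle list overlapped a peak of a TSA list, against 78.8% in another vehicle list, and 85.0% of the peaks of a TSA list overlapped a vehicle list, against 81.1% in another TSA list. The ranges over pairs of lists were 71.4% to 76.1% for vehicle peaks in TSA lists and 76.9% to 80.7% for vehicle peaks in vehicle lists, and they lay apart, but the pairs share libraries and were not tested. With each list divided into 10 bins by pileup, each of these means lay at 99.4% or above in the 4 highest bins of the equal-length lists. In the lowest bin it was 21.7% for vehicle peaks in TSA lists, 30.0% for vehicle peaks in vehicle lists, 47.2% for TSA peaks in vehicle lists and 37.9% for TSA peaks in TSA lists. On the full lists the separation began higher up, with 50.4% of the vehicle peaks of bin 4 found in TSA lists and 75.9% in other vehicle lists.

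**Figure D2:**
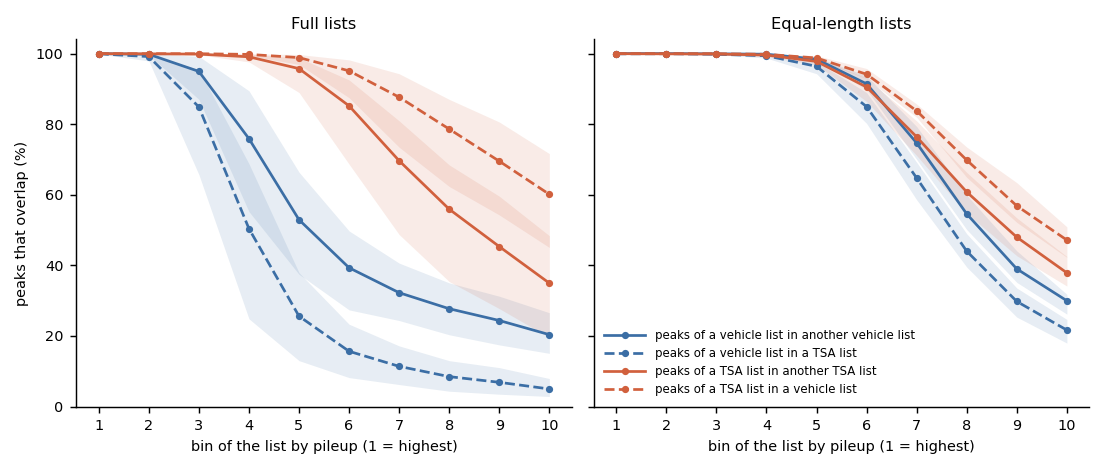
Percent of the peaks of a list that overlap a peak of another list (vertical axis) by bin of the list in order of pileup (10 bins, 1 is the highest), for full and equal-length lists. Points are means over pairs of libraries and bands the lowest to highest pair. The highest bins recur almost completely in every pairing, and on equal-length lists the lowest bin stands at 21.7% for vehicle peaks in TSA lists and 30.0% for vehicle peaks in other vehicle lists.

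Regions with a peak in all 7 libraries were narrower in the TSA lists. Cutting the lists to equal length does not change the depth at which peaks were called. Calling depth and treatment therefore cannot be told apart in any of these widths. The width of a region in a library is the sum of its peaks there, and log2 width was tested with limma with Benjamini-Hochberg adjustment at 0.05 over all shared regions. On full lists 1038 of 19165 shared regions (5.42%) narrowed and 1 (0.00522%) widened, with a median ratio of 0.842 over all of them. On equal-length lists 247 of 17930 (1.38%) narrowed and 3 (0.0167%) widened, with a median ratio of 0.862, and 89.7% of all tested regions had the lower mean in TSA libraries. The ranges of the groups did not overlap at 4886 regions (27.3%) that were narrower and at 57 (0.318%) that were wider in TSA libraries. The 247 narrowed regions had a median width of 880 bp in vehicle and 455 bp in TSA libraries. These counts rest on all 3 vehicle libraries: without vehicle 1, 2 or 3 the full lists gave 44, 23 and 15 narrower regions and the equal-length lists 0, while without 1 TSA library they gave 496 to 964 and 105 to 137.

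Regions away from gene starts and weak regions had the lower width ratios. On equal-length lists the median width ratio was 0.873 at gene starts, 0.832 in gene bodies and 0.803 between genes, and 1.03%, 1.98% and 2.78% of the regions narrowed in that order. In 5 equal groups of the shared regions by vehicle percentile, from the weakest to the strongest, the ratio was 0.741, 0.823, 0.871, 0.893 and 0.903, and 123, 60, 32, 19 and 13 regions narrowed. Regions were also divided more often in TSA lists. On equal-length lists 14.0% to 17.7% of the shared regions held more than 1 peak in the vehicle lists and 27.6% to 30.1% in the TSA lists, with no overlap between the groups. On full lists the shares nearly met, at 22.6% to 28.4% and 28.7% to 33.4%. The part that the cut of the lists has in this was not tested.

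**Figure D3:**
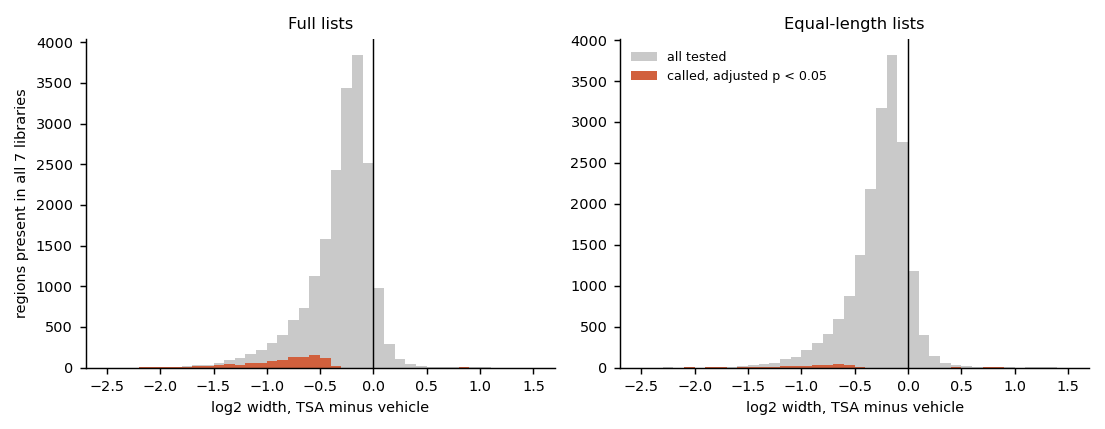
Number of regions present in all 7 libraries (vertical axis) by log2 width in TSA minus vehicle libraries (horizontal axis), on full and equal-length lists. Grey bars are all tested regions and orange bars those called with limma at an adjusted p under 0.05. The distribution lies mostly left of 0, with a median ratio of 0.842 on full and 0.862 on equal-length lists, and the called regions are almost all narrower.

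At named gene starts the largest narrowing on equal-length lists belonged to Rasd2, a small GTPase, Ap1s3, a clathrin adaptor subunit, Nipal1, a magnesium transporter, Slc7a11, the cystine-glutamate exchanger, Abtb2, Slain2, a microtubule plus-end protein, G0s2, an inhibitor of lipolysis, and Dnmt3a, a de novo DNA methyltransferase. The Slc7a11 region (chr3:50443353-50444094) measured 460, 553 and 507 bp in the vehicle and 229, 190, 189 and 169 bp in the TSA libraries. All TSA values lay below all vehicle values, a log2 change of -1.39 ± 0.13 (SE; adjusted p = 0.0120, limma). The Slain2 region (chr5:72913381-72914239) measured 754, 788 and 771 bp against 307, 381, 320 and 300 bp, a log2 change of -1.24 ± 0.11 (SE; adjusted p = 0.0120, limma), while its mean pileup percentile was 71.6 in vehicle and 71.3 in TSA lists. The Slain2 region was thus narrower in the TSA lists at nearly the same mean percentile.

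The Dnmt3a region (chr12:3891164-3893233) measured 1803, 1960 and 2054 bp in the vehicle and 792, 737, 1121 and 812 bp in the TSA libraries, a log2 change of -1.18 ± 0.15 (SE; adjusted p = 0.0344, limma). The Rasd2 region measured 1002, 913 and 1439 bp against 270, 396, 389 and 451 bp, a log2 change of -1.57 ± 0.22 (SE; adjusted p = 0.0386, limma). At both genes the highest TSA library stayed below the lowest vehicle library. The strongest widening outside chromosome 18 was seen between genes at chr1:41675078-41675938, with 332, 372 and 387 bp against 506, 570, 604 and 694 bp, and in a gene body at chr5:110979742-110981865, with 1288, 1294 and 1305 bp against 1725, 1869, 1722 and 1809 bp (log2 change 0.46 ± 0.08, SE; adjusted p = 0.0478, limma).

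On equal-length lists the widest acetylated domains did not pass the test. Of the 5 widest, all but that of Pou3f3 had every TSA width below every vehicle width, beside 27.3% of all shared regions. The widest, chr13:83712909-83743195, measured 29834, 29873 and 30121 bp in vehicle and 29317, 29571, 29333 and 29765 bp in TSA libraries. The domain of Pou3f3, an upper-layer and progenitor transcription factor (chr1:42677598-42695487), measured 17004, 16800 and 16751 bp against 16831, 16377, 17220 and 16673 bp, and the groups overlapped. In the widest domain the equal-length TSA lists held 6, 7, 5 and 6 separate peaks and the vehicle lists 1, 2 and 2.

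The basal progenitor markers were acetylated in both groups. Of 14 listed basal progenitor genes with a start in the reference table, 13 carried a peak in all 7 libraries, as did 11776 (43.6%) of all 27025 genes. The Eomes region (chr9:118475955-118482571) measured 6243, 6442 and 5772 bp in the vehicle and 5818, 5410, 5418 and 5632 bp in the TSA libraries, and the ranges overlapped (log2 change -0.14 ± 0.09, SE; adjusted p = 0.295, limma). Its widest single peak was 5826, 5907 and 3684 bp in vehicle and 3389, 3277, 3405 and 2611 bp in TSA libraries. Every TSA value of this widest peak lay below every vehicle value. Its pileup percentile was 97.5, 94.2 and 96.1 against 98.1, 96.4, 99.1 and 94.7. Neurog2, the proneural factor upstream of Eomes, stood at 86.4, 84.9 and 91.3 against 96.0, 81.2, 86.0 and 89.3.

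On full lists 2 of 13 tested basal progenitor genes narrowed, beside 5.19% of 9845 named genes with a region in all libraries. They were Gadd45g, a stress and growth arrest gene, with 1223, 1339 and 1271 bp against 730, 952, 709 and 951 bp (adjusted p = 0.0458, limma), and Igsf8, a membrane protein of the immunoglobulin family, with 2161, 2495 and 2883 bp against 1858, 1528, 1539 and 1471 bp (adjusted p = 0.0413, limma). The narrowed Gadd45g region (chr13:51845176-51846514) ended before the listed gene start. The widest peak near any start of Gadd45g measured 2602, 3199 and 2109 bp against 2550, 2578, 2004 and 2603 bp, and these overlapped. On equal-length lists 0 of 13 passed, beside 1.14% of 9638 named genes, and the ranges lay apart and narrower at 7 of the 13, beside 31.3% of the named genes. The Notch ligand gene Dll1 and the neuronal helix-loop-helix gene Nhlh1 had lower percentiles in every TSA list than in any vehicle list, beside 6.45% of the named genes, and neither passed the test: Nhlh1 stood at 44.4, 50.6 and 55.3 against 39.7, 35.1, 36.4 and 36.2 (adjusted p = 0.696, limma).

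All 17 listed radial glia genes with a start carried a peak in all 7 libraries, beside 43.6% of all genes, and 3 narrowed on full and 1 on equal-length lists, beside 5.19% and 1.14% of the named genes. On equal-length lists the width ranges lay apart and narrower at 12 of the 17 and wider at 0, beside 31.3% and 0.363% of the named genes. Vim, which encodes the filament protein vimentin of radial glia, was the one that passed on both. Its region (chr2:13572918-13575845) measured 2561, 2488 and 2900 bp in the vehicle and 1726, 1713, 1680 and 1583 bp in the TSA equal-length lists, a log2 change of -0.66 ± 0.09 (SE; adjusted p = 0.0404, limma), and this call was lost without any 1 vehicle library. Fabp7, a fatty acid binding protein of radial glia, narrowed on full lists from 3747, 3724 and 4184 bp to 2426, 2608, 2340 and 3010 bp (adjusted p = 0.0386, limma). Gli3, a transcription factor of hedgehog signalling, did so from 4325, 4332 and 4718 bp to 2652, 2986, 2644 and 2874 bp (adjusted p = 0.0195, limma). In all 3 genes every TSA value lay below every vehicle value. Pax6, a transcription factor of radial glia, stood at percentiles 79.7, 76.5 and 80.4 against 75.8, 79.4, 81.7 and 75.0, and the groups overlapped. Sox2, a stem cell factor, stood at 83.9, 76.5 and 81.5 against 94.3, 83.0, 83.2 and 81.2, with TSA 1 above the rest. Pdpn had the widest gap in this list, with 39.9, 40.4 and 48.5 against 18.6, 10.7, 33.5 and 18.1 (adjusted p = 0.558, limma).

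Of the genes of deep-layer neurons 5 of 6 with a start were acetylated in all libraries, beside 43.6% of all genes. Bcl11b, a factor of corticospinal neurons, narrowed on full lists (2664, 2785 and 2680 bp against 1956, 1835, 2236 and 1826 bp, adjusted p = 0.0441, limma), 1 of 5 tested beside 5.19% of the named genes. Tbr1, a deep-layer factor that follows Eomes in neurogenesis, stood at percentiles 97.6, 96.6 and 96.8 against 98.1, 98.1, 97.0 and 96.1. None of the 8 upper-layer and 4 pan-neuronal genes tested passed in either fit, beside 5.19% and 1.14% of the named genes. On equal-length lists the width ranges lay apart and narrower at 6 of 8 upper-layer, 4 of 4 pan-neuronal and 4 of 5 deep-layer genes, beside 31.3% of the named genes. They lay apart and wider at 0 genes of these lists. Among 9 Notch pathway genes tested, 1 narrowed on full and 0 on equal-length lists, beside 5.19% and 1.14% of the named genes. It was the receptor gene Notch2, from 1152, 1840 and 1564 bp to 780, 830, 769 and 765 bp (adjusted p = 0.0292, limma). Jag1, a Notch ligand gene, Dll1 and Lfng, a modifier of Notch receptors, had non-overlapping lower percentiles, 3 of 9 genes beside 6.45% of the named genes, Jag1 with 81.1, 62.9 and 70.1 against 61.2, 48.7, 46.6 and 50.9 (adjusted p = 0.607, limma).

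Among the lists of other cell types, the share of genes with a peak in all 7 libraries varied. It lay below that of all genes in each list but that of interneurons. Of 7 microglial genes 0 and of 8 Hox genes, which are largely silent in cortex, 0 carried a peak in all 7. So did 1 of 7 vascular and meningeal, 2 of 7 erythroid, 1 of 3 oligodendrocyte precursor and 5 of 10 interneuron genes, beside 43.6% of all genes. On the full lists a microglial gene carried a peak in a mean of 0.714 of the 3 vehicle and 0.143 of the 4 TSA libraries, and a gene of the whole table in 1.53 and 1.84. On equal-length lists Itgam, in 1 vehicle library, was the one microglial gene with a peak. Lhx6, a factor of cortical interneurons, carried a peak in 3 of 3 vehicle and 0 of 4 TSA libraries on the full lists, and in 1 of 3 and 0 of 4 on the equal-length lists. Kdr, an endothelial receptor gene, narrowed on both kinds of list (chr5:75978053-75978863; 811, 779 and 775 bp against 494, 453, 396 and 429 bp, log2 change -0.84 ± 0.10, SE, adjusted p = 0.0308, limma, on equal-length lists), and the second call was lost without any 1 vehicle library. Npy, a neuropeptide gene, narrowed on full lists from 957, 892 and 887 bp to 249, 270, 415 and 257 bp (adjusted p = 0.0137, limma). On full lists Kdr was 1 of 1 vascular and meningeal and Npy 1 of 5 interneuron genes tested, beside 5.19% of the named genes. The part that these cell types have in the peak lists was not tested.

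Among the genes of enzymes that write and erase the mark, 8 of 8 deacetylase and 9 of 9 acetyltransferase genes with a start carried a peak in all 7 libraries. So did 9 of 9 housekeeping genes and 43.6% of all genes. Hdac1 was not analysed here. Hdac2, a class I deacetylase, stood at percentiles 95.6, 95.2 and 98.5 against 92.4, 94.6, 97.5 and 92.1. Kat7, an H3 acetyltransferase, was the one enzyme gene that narrowed, on full lists only (810, 773 and 785 bp against 573, 607, 622 and 498 bp, adjusted p = 0.0473, limma). This was 1 of 9 acetyltransferase and 0 of 8 deacetylase genes, beside 5.19% of the named genes. On equal-length lists its region stood at percentiles 88.2, 87.7 and 86.8 against 64.8, 70.2, 63.9 and 80.5. Those ranges lay apart, at 1 of 9 acetyltransferase genes beside 6.45% of the named genes, without passing the test (adjusted p = 0.556, limma). The percentiles of the strongest peak near any start of Kat7 were 88.2, 92.8 and 86.8 against 80.6, 93.0, 91.0 and 90.8, and these overlapped. Of 8 genes known to respond to deacetylase inhibitors, 0 passed in either fit, beside 5.19% of the named genes on full and 1.14% on equal-length lists. Cdkn1a, the p21 cell cycle inhibitor and the classic gene induced by deacetylase inhibitors, stood at 33.3, 43.6 and 45.3 against 30.3, 38.6, 27.8 and 19.4, and H1f0, a linker histone, at 94.9, 93.9 and 94.4 against 95.0, 87.8, 92.2 and 96.1. Neither set of percentiles lay apart. The H1f0 region was narrower in every TSA list, with 4495, 4455 and 4336 bp against 4103, 3943, 3920 and 4023 bp. It did not pass the test (adjusted p = 0.248, limma, equal-length lists). On these lists the width ranges lay apart and narrower at 2 of the 8 inhibitor-responsive genes. They did so at 4 of 8 deacetylase genes, among them Hdac2, and at 3 of 9 acetyltransferase genes, beside 31.3% of the named genes. Among 12 cell cycle genes 1 narrowed on full lists, beside 5.19% of the named genes. It was Plk1, a mitotic kinase (3931, 3490 and 3762 bp against 2864, 2479, 2600 and 2377 bp, adjusted p = 0.0363, limma). Mki67, the proliferation marker, overlapped in percentile at 65.8, 54.7 and 60.3 against 62.3, 53.5, 34.5 and 44.0. Trnp1, a nuclear protein of radial glia, stood at 39.9, 10.97 and 44.8 against 57.7, 37.7, 54.5 and 49.6.

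The rank of pileup did not pass the test at any shared region. With limma on normal scores of the rank, 0 of 17930 regions (0%) were called higher and 0 lower, the smallest adjusted p was 0.0731, and 1274 had an unadjusted p under 0.05. Group ranges lay apart at 441 regions (2.46%) higher and 1053 (5.87%) lower in TSA lists. The largest higher value at a named start was Yif1b, a protein of transport between endoplasmic reticulum and Golgi, with percentiles 55.3, 51.4 and 52.7 against 76.8, 82.7, 80.9 and 80.9 (adjusted p = 0.370, limma). Fyco1, an adaptor of autophagosome transport, Mypop, B3galt6 with Sdf4 in 1 region, Erbb4, the neuregulin receptor, Wdr90, Tprn and Phospho1 followed. The largest lower value was Rph3a, a synaptic vesicle protein, with 39.7, 53.2 and 49.1 against 4.87, 19.4, 4.34 and 38.1 (adjusted p = 0.556, limma), followed by Veph1, Glp1r, Nexmif, Adcy2, an adenylyl cyclase, Chaf1b, a subunit of chromatin assembly factor, Bdnf, a neurotrophin, and Pde7b. Each of these 16 regions has group ranges that lie apart because the naming rule asked for it.

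**Figure D4:**
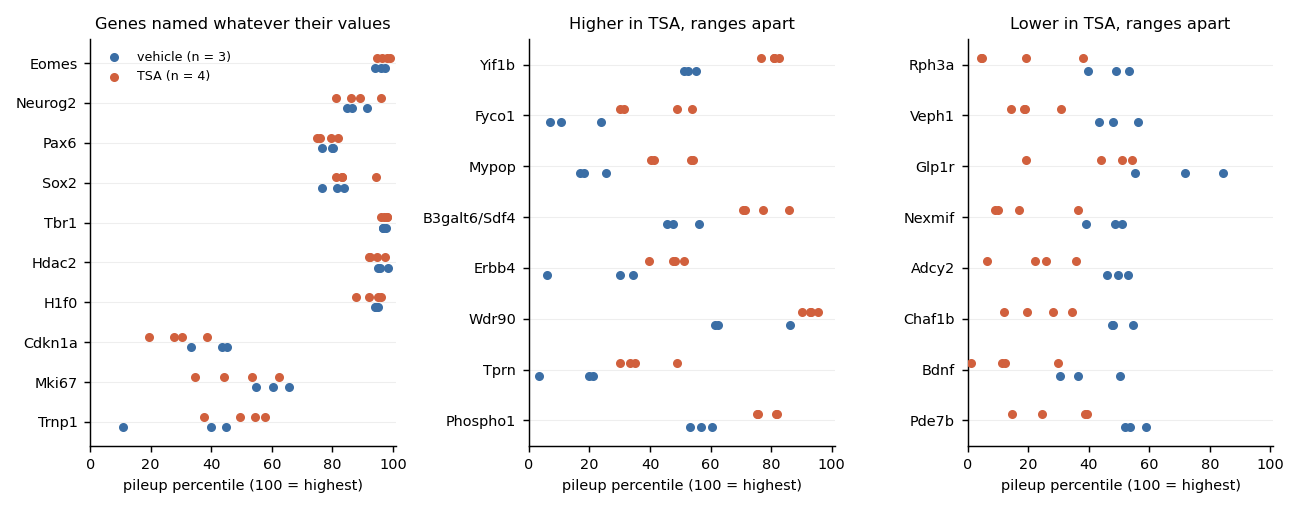
Pileup percentile within the equal-length list (horizontal axis, 100 is the highest) for named genes, with 3 vehicle (blue) and 4 TSA libraries (orange) as points. The first panel shows the strongest peak within 1 kb of any start of genes named whatever their values. The other panels show single regions. Eomes and Tbr1 stay at 94.2 or higher in all 7 libraries, and the 16 regions of the other panels were chosen for ranges that lie apart, with Yif1b at 51.4 to 55.3 in vehicle and 76.8 to 82.7 in TSA lists.

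**Figure D5:**
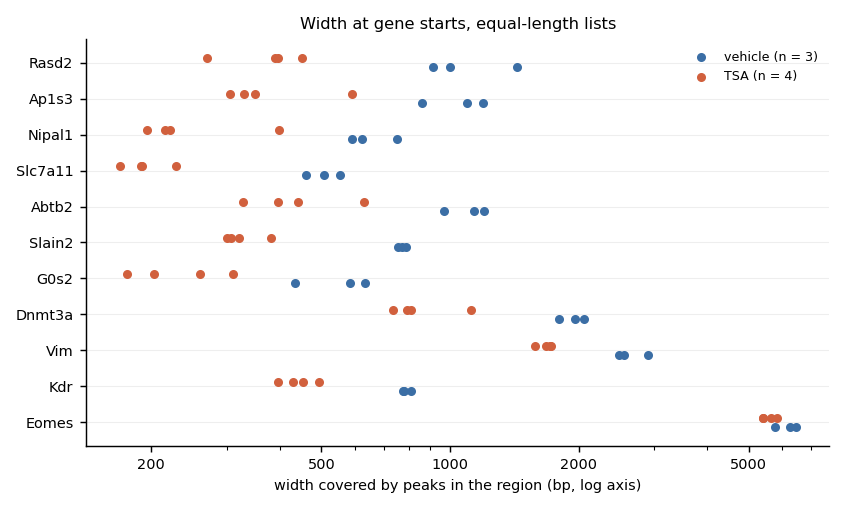
Width covered by peaks in the region at each gene start (bp, log axis) on equal-length lists, with 3 vehicle (blue) and 4 TSA libraries (orange) as points. The first 10 genes passed the test and their groups lie apart, as at Slain2 with 754 to 788 bp in vehicle and 300 to 381 bp in TSA libraries, and the Eomes groups overlap.

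Base composition separated the starts by how steadily they were acetylated. In the 300-base windows around 32851 starts of the RefSeq table, 72.9% of those with a region in all 7 libraries held at least 15 CG pairs, against 2.30% of those with no region in any library and 34.6% of all starts. Of the 332 starts with a vehicle-only region on full lists 42.8% did, and of the 114 of them with no other region 24.6%. The share was 82.1% at the 486 starts with percentile ranges higher and 68.1% at the 879 starts with ranges lower in TSA lists. The motif GGGCGG, searched on both strands, occurred in 65.8% of the windows with a region in all libraries, 8.06% of those with none and 35.7% of all, and TATAAA in 6.26%, 21.4% and 13.6%. CAGCTG, an E-box letter pattern of proneural factors, was present in 14.6% of the windows with a region in all libraries, 21.7% of the vehicle-only ones and 16.3% of all, and in 10.1% and 18.1% of those with higher and lower percentile ranges. A match shows only that these letters lie in the window, and starts of 1 gene can share bases.

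The same regions were then read in the 8 Tbr2-negative libraries, which took no part in choosing them. The 247 narrowed regions had median widths of 849 to 910 bp in the positive vehicle and 445 to 465 bp in the positive TSA lists, and of 717, 773, 779 and 774 bp in the negative vehicle and 755, 729, 769 and 681 bp in the negative TSA lists, where the groups overlapped. The 441 regions with higher percentiles had a median percentile of 77.1 to 80.0 in negative vehicle and 78.1 to 80.8 in negative TSA lists, against 71.9 to 72.3 and 83.2 to 84.0 in the positive lists. The 1053 regions with lower percentiles had 65.5 to 66.2 in negative vehicle and 62.7 to 64.2 in negative TSA lists, which did not overlap, against 68.5 to 68.9 and 54.7 to 56.3 in the positive ones. In negative nuclei the widths thus overlapped between treatments, and the regions of lower rank differed the same way by a few percentiles. These sets were chosen for gaps between the positive libraries, so the positive gaps printed here are set by the choice. Smaller gaps in negative nuclei therefore cannot be read as a difference between populations, which was not tested for single regions. Of the 2628 vehicle-only regions of the full lists, 42.2% to 52.4% carried a peak in a negative vehicle library and 27.4% to 45.9% in a negative TSA library. The lowest of these shares, 27.4%, came from negative TSA 4, the library with 15.2 M tags.

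Per library, the full-list differences were larger in positive than in negative nuclei, without passing 0.05 after adjustment. Negative lists held 66273 ± 9907 peaks with vehicle and 63621 ± 12758 with TSA (SD, n = 4 each), and the difference of the differences was -31577 peaks (p = 0.0269, 0.0539 adjusted over 6 quantities, exact permutation of 2450 splits). Without vehicle 1 it was -25019 (p = 0.08, exact permutation test). For the full-list median width it was 132 bp (p = 0.0122, adjusted 0.0514) and for the full-list share at gene starts 18.8 percentage points (p = 0.0171, adjusted 0.0514; both exact permutation tests), and for covered length -9.62 Mb (p = 0.0539, adjusted 0.0808, exact permutation test). On equal-length lists the differences between populations did not pass: -95 bp for the median width, from 632 and 593 bp in negative vehicle and TSA lists (p = 0.170, exact permutation test), and -0.174 percentage points for the share at gene starts (p = 0.976, exact permutation test). In negative nuclei that share was 49.7% with vehicle and 54.3% with TSA, a mean that included 62.9% in negative TSA 2, and the groups lay apart there too (p = 0.0286, exact permutation test, the smallest value 4 against 4 can give).

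RNA from the same populations gave no gene past the threshold for TSA in positive nuclei. With edgeR's quasi-likelihood test 0 of 20078 genes (0%) passed an adjusted p of 0.05, 3175 had an unadjusted p under 0.05, and DESeq2 called 1064. The RNA groups held 3 and 2 libraries, with 22.2 to 24.7 M counts each, and in such bulk RNA fewer cells of a type and less RNA per cell cannot be told apart. The 148 tested genes with a vehicle-only region at a start had a median log2 fold change of -0.005, beside -0.04 over all tested genes. Of them 0 passed and 19.6% had an unadjusted p under 0.05, beside 15.8% of all. The median was -0.03 for 486 genes with narrowed regions, 0.09 for 337 with higher and 0.02 for 600 with lower percentile ranges. In vehicle libraries the median RNA level was 38.5 CPM for genes with a region in all 7 lists and 0.742 CPM for genes with no peak, of which 858 of 4699 had enough reads to be tested. It was 11.1 CPM for the 199 genes with a vehicle-only region, and 0.597 CPM for the 70 of them with no other peak at a start.

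Eomes stood at 410, 371 and 548 CPM in the vehicle and 391 and 462 CPM in the TSA libraries of positive nuclei, with 21.97, 13.9 and 18.2 CPM in the negative vehicle libraries, so the RNA carried the marker of the sort in both treatments. Cdkn1a stood at 14.7, 15.4 and 13.4 CPM with vehicle and 28.3 and 20.6 CPM with TSA (log2 fold change 0.75 ± 0.26, SE; adjusted p = 0.183, edgeR), higher in both TSA libraries, beside a region whose percentiles overlapped. Trnp1 stood at 2.49, 2.64 and 3.08 CPM against 8.45 and 4.88 CPM (log2 fold change 1.28 ± 0.40, SE; adjusted p = 0.152, edgeR). For Fyco1, whose percentile was higher in TSA lists, RNA was lower in both TSA libraries, at 91.3, 72.4 and 71.7 CPM against 41.9 and 53.8 CPM (adjusted p = 0.170, edgeR). Yif1b stood at 68.3, 82.2 and 89.1 CPM against 99.1 and 95.1 CPM (adjusted p = 0.412, edgeR), and Veph1, with a lower percentile, at 35.5, 31.1 and 30.6 CPM against 20.9 and 18.6 CPM (adjusted p = 0.371, edgeR). Slc7a11 stood at 0.632, 3.87 and 33.0 CPM against 1.27 and 0.957 CPM, and its vehicle spread rested on 1 library (adjusted p = 0.435, edgeR). Slain2 and Dnmt3a, whose regions narrowed, overlapped in RNA, Slain2 at 61.3, 55.3 and 76.6 against 71.3 and 69.4 CPM and Dnmt3a at 64.7, 62.2 and 62.0 against 62.2 and 68.4 CPM.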

How the data were processed

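H3K9ac peaks came as lists made by the authors with MACS 2.1.0.20140616 against mm10 at a q threshold of 0.1, per the file headers, 1 list per library and 1 input per group, with duplicates removed and the larger of ChIP and input scaled down to the smaller. The deposited lists hold peak positions, a pileup signal at the summit, -log10 p and q values and a fold enrichment ratio over the input, all made by the caller per the file headers; the fold was not used. RNA values are raw read counts per gene as deposited by the authors, whose submitters' processing notes name SAMtools and mm10; the sources used here do not name the aligner or counter. TruSeq RNA v2 per the labels keeps no strand, so overlapping genes are less certain. The RNA protocol in the labels describes whole tissue and the series sorted nuclei, which was not resolved.

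Peaks of the 7 lists were merged into regions where they shared 1 bp. Because pileups of separate calls share no scale, they were used as within-list percentiles of lists cut to 31823 peaks. Percentiles of the genes that were always named are those of the strongest peak within 1 kb of any start. Gene starts came from the RefSeq table of GRCm38.p6 (32851 starts of 27025 genes), with a window of 1 kb; regions on chromosome 18 were not placed. Per-library values were tested by exact permutation, shared regions with limma 3.58.1 on log2 width and normal scores of rank, and RNA with edgeR 4.0.16 (R 4.3.3; filterByExpr, TMM, 4 group means; DESeq2 1.42.0 as alternative), all with Benjamini-Hochberg adjustment at 0.05. Standard errors are limma's or edgeR's. On simulated data limma recovered 62.5% and 65.5% of 200 shared regions shifted by 1 on the log2 scale on full and equal-length lists and 55.5% of 200 shifted by 1 in normal scores, and edgeR 74.5% of 200 genes changed 4-fold. Python 3.11.15, pandas 2.3.3, numpy 2.4.6 and scipy 1.17.1 were used.

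Named genes follow a rule: 11 genes always; at named gene starts the 8 largest rank changes each way whose ranges lie apart, the 8 strongest group-specific regions and the 8 largest width changes; the 5 widest regions; and members of 18 lists that passed or had the largest changes. The members, lists and rule were chosen with earlier results of these data known. The alternatives were stricter q thresholds, other cuts, merging and windows, a replicate block, other RNA settings and each library left out.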

Additional observations from a re-analysis of the deposited data

Results flagged for a closer look

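Of 38 sets of library values checked for a sample far from the others of its group, 4 were singled out, and chance singles out about 1 in 20. The covered length of negative TSA 4 was 25.8 Mb and that of the other 3 libraries 32.7 to 33.0 Mb. The full-list median width of TSA 2 was 344 bp, with 416 to 419 bp in the other TSA libraries. The widest Eomes peak of TSA 4 was 2611 bp, with 3277 to 3405 bp in the others. The Sox2 percentile of TSA 1 was 94.3, with 81.2 to 83.2 in the others. TSA minus vehicle differed between positive and negative nuclei by -31577 peaks per library (p = 0.0269), by 132 bp of full-list median width (p = 0.0122) and by 18.8 percentage points of peaks at gene starts on full lists (p = 0.0171), all by exact permutation, and each exceeded 0.05 after adjustment. The share of these differences that comes with the calling depth of the positive TSA libraries was not tested.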

How the results depend on the processing

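The 6 per-library quantities kept their direction in 62 of 62 values under the alternatives. Leaving out 1 library gave differences of -38010 to -27672 peaks, -12.3 to -10.5 Mb, 137 to 170 bp and -139 to -123 bp of median width on full and equal-length lists, and 21.3 to 24.8 and 4.06 to 4.91 percentage points at gene starts. With a -log10 q of at least 5 the full-list width difference was 31.1 bp (p = 0.286, exact permutation test).

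Vehicle-only and TSA-only counts ranged from 3019 to 6500 and from 10 to 20 on full lists, and from 354 to 694 and from 76 to 97 on equal-length lists, with 1 library left out. A -log10 q of at least 2 gave 8 TSA-only regions, of at least 5 gave 931 vehicle-only regions, lists of 10000 peaks gave 58 and 19, and peaks covering at least 50% of the region 786 and 20. Narrower regions ranged from 15 to 964 and wider from 0 to 4 on full lists, and from 0 to 137 and 0 to 1 on equal-length lists, with 1 library left out. Wider regions numbered 2 at either q threshold and 6 when lists were cut by q, which also gave 1 region of higher rank. Lists of 10000 peaks gave 87 narrower and 0 wider regions. With ranges in place of limma 441 regions were higher and 1053 lower in rank.

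With a replicate block, by the numbers of the titles or, chosen after seeing the data, those of the file names, 0 regions were narrower and 0 wider on both kinds of list. Libraries with the same title number correlated in their deviations at -0.012 to 0.051 and those with different numbers at -0.042 to 0.061, so the numbers give no pairing, and title and file-name numbers differ. In RNA the replicate block called 13 genes, edgeR with no low-count filter 364 (3 with a vehicle-only region) and DESeq2 1064 (12), against 0, and leaving out 1 RNA library 0 to 39. The cause of these shifts was not tested.

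With 1 of 15 libraries left out, chosen after seeing the data, the difference between populations ranged from -36838 to -25019 peaks (p = 0.08 without vehicle 1, exact permutation test), from -11.4 to -8.55 Mb, from 118 to 151 bp and -112 to -79.2 bp of width, and from 16.9 to 21.1 and -1.42 to 2.71 percentage points at gene starts. The covered length passed 0.05 without vehicle 2, vehicle 3, negative vehicle 2 or negative vehicle 3 (-10.3, -10.0, -10.3 and -10.2 Mb). The equal-length share at gene starts turned its sign without vehicle 2 (0.297), TSA 1 (0.017), negative vehicle 4 (0.108) or negative TSA 2 (2.71). Groups of 3 against 4 libraries cannot go below p = 0.0571 in an exact permutation test.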
